A study of Arabidopsis thaliana with 12 samples.

Results

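The 10 genes described here encode the salicylate receptors NPR1, NPR3 and NPR4, the NPR1-binding proteins NIMIN1, NIMIN2 and NIMIN3, the glutaredoxin GRXC9 and the pathogenesis-related proteins PR1, PR2 and PR5. They were chosen by locus and are 10 of the 33602 genes counted. Transcript levels were measured by mRNA sequencing of whole Arabidopsis thaliana seedlings grown in shaken liquid culture. The treatment lasted 1 h and began when the seedlings were 6 days old. The 4 groups of 3 libraries were ixr1-1 seedlings in 600 nM isoxaben, ixr1-1 seedlings in DMSO, Col-0 seedlings in 600 nM isoxaben and Col-0 seedlings in DMSO. Isoxaben, a herbicide, blocks the making of cellulose. The line ixr1-1 is labelled as an isoxaben-resistant mutant in the Col-0 ecotype, and its lesion lies in CESA3, a catalytic subunit of the cellulose synthase of primary walls. Col-0 is the wild type. All groups received DMSO, the solvent of the herbicide, in fresh medium, into which seedlings of 1 flask were divided at the start. Each library therefore came from many pooled seedlings, and the labels do not state that replicates were independent cultures, so the p-values measure the spread between libraries, which may be technical.

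Salicylate is a plant hormone of immunity. NPR1 binds it and acts with TGA factors, a group of bZIP proteins, to switch on defence genes, whereas its relatives NPR3 and NPR4 bind it as well and hold such genes back. NIMIN proteins bind NPR1 and restrain it, and GRXC9 is a glutaredoxin of the CC type that binds TGA factors. In salicylate-treated leaves NIMIN1, NIMIN2 and GRXC9 are known as early genes, while PR1, PR2 and PR5, which encode secreted defence proteins, are known as late ones.

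Libraries held 8521491 to 20658035 counts, and 20379 genes had enough counts to be tested. Of the 10 genes, 9 passed that filter, which asked for at least about 0.69 CPM in 3 libraries. CPM are counts scaled to the size of the library. NIMIN1 did not pass. PR1 passed through Col-0 libraries alone, with 0 of 6 ixr1-1 libraries at the cut-off, and PR2 through all 6 ixr1-1 libraries with 1 of 6 from Col-0, so each could be tested because it was high in 1 genotype. All 11 root markers and all 9 shoot markers had counts in each group. The 13 transcripts of seed storage and oil body proteins separated the genotypes. Their summed level was 113.5 to 658 CPM in ixr1-1 isoxaben and 223 to 726 in ixr1-1 DMSO, against 1.45 to 2.51 in Col-0 isoxaben and 1.5 to 3.56 in Col-0 DMSO. All 13 averaged over 1 CPM in both ixr1-1 groups and 0 of them did in either Col-0 group. The summed level of the shoot markers was also apart, at 22780 to 27250 CPM in ixr1-1 and 28910 to 32870 CPM in Col-0, while that of the root markers was 207.7 to 225.6 CPM in ixr1-1 and 195.3 to 217.1 CPM in Col-0.

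The first comparison, isoxaben against DMSO in Col-0, asks which of the genes respond in the wild type. GRXC9 and NPR3 rose, and none of the other 7 genes tested passed the threshold, PR1, PR2 and PR5 among them. Across all genes tested 0.613% rose and 0.167% fell by the same rule, an adjusted p under 0.05 in edgeR's quasi-likelihood test. Levels are CPM scaled by TMM factors, and changes are log2 fold changes ± SE. In bulk tissue, a change in RNA per cell cannot be told from a change in the number of cells that express a gene.

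GRXC9 (AT1G28480, chromosome 1, 10013474 to 10014073, minus strand, 1 exon) stood at 4.35, 4.13 and 2.37 CPM in the Col-0 isoxaben libraries, against 1.02, 0.562 and 0.472 CPM in Col-0 DMSO. The lowest treated library was above the highest untreated one. The group means were 3.61 ± 1.1 CPM in isoxaben and 0.686 ± 0.30 CPM in DMSO (SD, n = 3 each), a 5.30-fold rise (log2 2.41 ± 0.31, adjusted p = 0.00022). These levels rest on 151 counts in isoxaben and 32 in DMSO. The call held in all 20 alternative fits in which the gene was tested, with an adjusted p of at most 0.00485.

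NPR3 (AT5G45110, chromosome 5, 18228910 to 18231522, plus strand, 4 exons) was at 62.2, 50.5 and 43.4 CPM in Col-0 isoxaben, against 25.4, 26.4 and 23.6 CPM in Col-0 DMSO. All 3 treated libraries were higher than all 3 untreated ones. The means were 52.0 ± 9.5 CPM in isoxaben and 25.1 ± 1.4 CPM in DMSO (SD, n = 3 each), a 2.06-fold rise (log2 1.04 ± 0.12, adjusted p = 0.00025). It was called in all 21 alternative fits. Groups that do not overlap, as those of GRXC9 and NPR3, were found for 12.8% of all genes tested in this comparison.

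The other 2 receptor genes did not pass. NPR4 (AT4G19660, chromosome 4), the closest relative of NPR3 in the files with 75.7% identity over their best aligned stretch, was at 20.7, 18.1 and 15 CPM in Col-0 isoxaben and at 16.2, 12.6 and 14.5 CPM in Col-0 DMSO. These ranges overlapped (log2 0.30 ± 0.13, adjusted p = 0.59). NPR1 (AT1G64280, chromosome 1), the co-activator, averaged 26.7 ± 1.0 CPM in isoxaben and 25.04 ± 1.4 CPM in DMSO (SD, n = 3 each; log2 0.096 ± 0.076, adjusted p = 0.99). An interval of 2 SE allows NPR1 a change between -0.056 and 0.25, so a rise of the size seen for NPR3 lies outside it. NPR1 overlaps exons of AT1G64270 on the opposite strand, and although the library kit keeps strand, the sources used here do not state whether counting used it, so reads of the 2 genes may be mixed.

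Among the NIMIN genes, NIMIN2 (AT3G25882, chromosome 3) was at 4.15, 2.41 and 1.88 CPM in Col-0 isoxaben and at 1.57, 1.20 and 2.04 CPM in Col-0 DMSO. The third treated library lay below the highest untreated one, and the change did not pass (log2 0.73 ± 0.31, adjusted p = 0.62). NIMIN3 (AT1G09415, chromosome 1) averaged 6.19 ± 0.95 CPM in isoxaben and 6.22 ± 0.36 CPM in DMSO (SD, n = 3 each; log2 0.016 ± 0.14, adjusted p = 1). NIMIN1 (AT1G02450, chromosome 1) had 2 counts over the 3 Col-0 isoxaben libraries, 2 over Col-0 DMSO, 2 over ixr1-1 isoxaben and 1 over ixr1-1 DMSO. Each of these sums is under 3 counts, the limit that a count of 0 allows, so no difference was detectable at this depth. That limit corresponds to 0.063 to 0.075 CPM over a group and covers counting error only.

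The PR genes, which encode a secreted protein of the CAP family (PR1), a beta-glucanase (PR2) and a thaumatin-like protein (PR5), did not pass in Col-0. PR1 (AT2G14610, chromosome 2) was at 1.35, 1.20 and 0.697 CPM in isoxaben and at 1.16, 1.83 and 0.419 CPM in DMSO, and the treated values lay within the untreated range. Its log2 change was -0.018 ± 0.44, with a 2 SE interval of -0.89 to 0.86. PR2 (AT3G57260, chromosome 3) was at 0.966, 0.459 and 0.279 CPM in isoxaben and at 0.341, 0.492 and 0.472 CPM in DMSO (log2 0.26 ± 0.78, interval -1.30 to 1.83). The PR2 values rest on 22 counts in isoxaben and 21 in DMSO. PR5 (AT1G75040, chromosome 1) was at 2.12, 1.72 and 2.16 CPM in isoxaben and at 1.71, 1.55 and 1.52 CPM in DMSO. The PR5 groups did not overlap, yet the change was small (log2 0.32 ± 0.26, adjusted p = 0.99).

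Set side by side, the early genes had log2 changes of 2.41 (GRXC9) and 0.73 (NIMIN2) in Col-0, with NIMIN1 at its counting limit, and the late genes had 0.32 (PR5), 0.26 (PR2) and -0.018 (PR1). In ixr1-1 the same genes had -0.19 (GRXC9), -0.25 (NIMIN2), 0.095 (PR5), -0.43 (PR2) and -0.71 (PR1). Only GRXC9 among them passed, in Col-0 alone, and the difference between early and late genes was not tested. The 2 SE intervals of PR1 and PR5 in Col-0, which end at 0.86 and 0.84, leave out a change as large as that of GRXC9, whose interval is 1.79 to 3.03. That of PR2, up to 1.83, overlaps it slightly. The interval of the early gene NIMIN2, 0.11 to 1.35, also leaves out a change as large as that of GRXC9. It overlaps the intervals of PR1, PR2 and PR5.

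**Figure D1:**
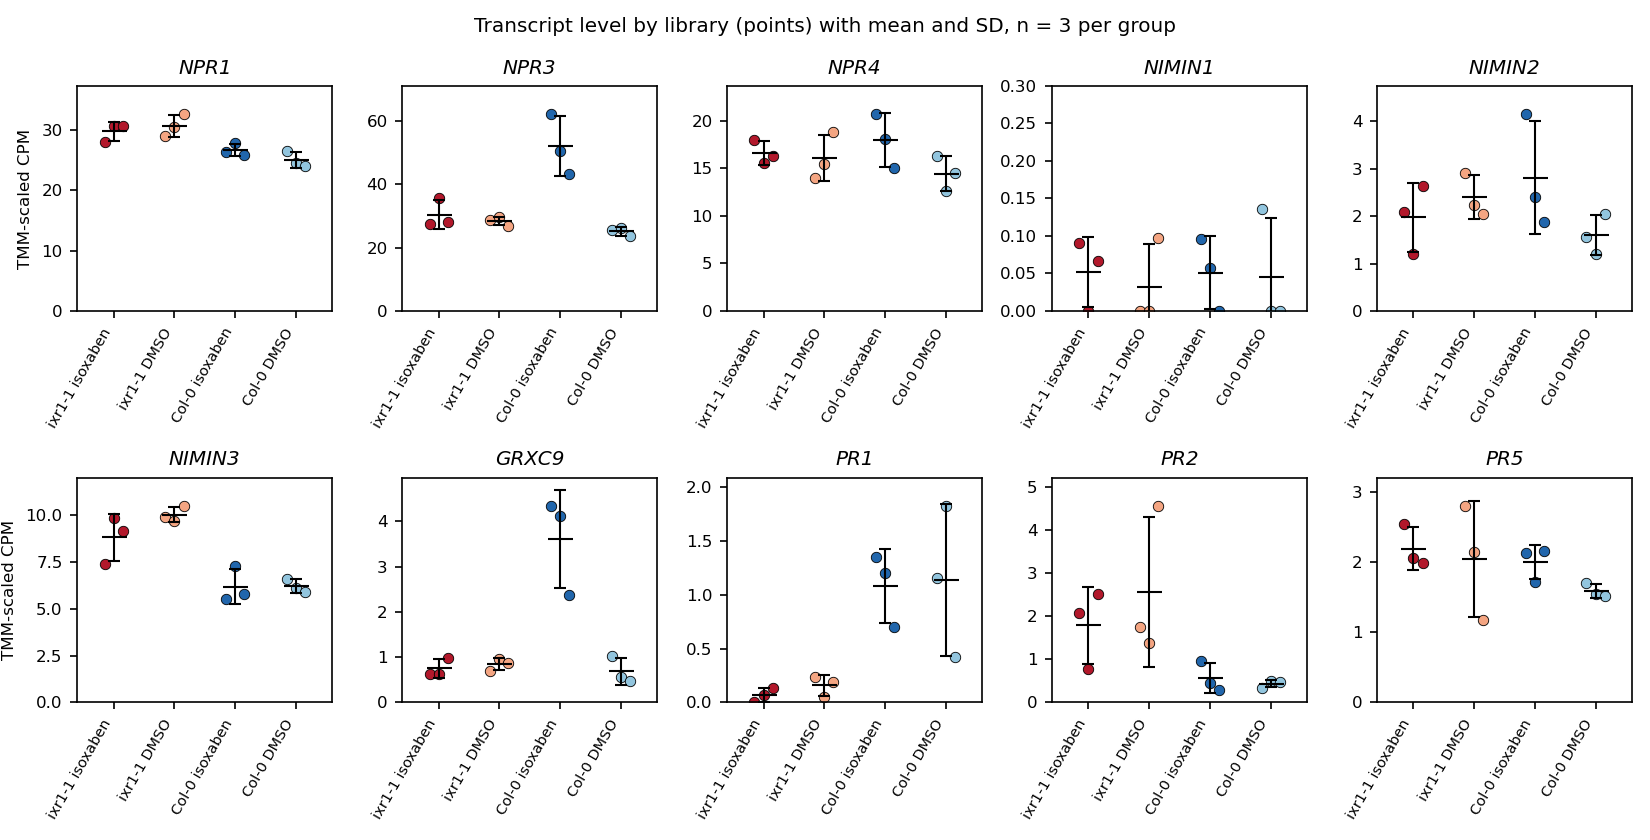
Level of each of the 10 genes in TMM-scaled CPM (y axis, a separate scale for each gene) in every library, by group; points are libraries and bars give mean and SD (n = 3). GRXC9 and NPR3 are highest in the 3 Col-0 isoxaben libraries, PR1 is at most 0.234 CPM in all 6 ixr1-1 libraries, and NIMIN1 is near 0 throughout.

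Sequence upstream of the genes is shown for the 2 that rose in Col-0, for the early gene NIMIN2 that did not pass, and for the late gene PR2, which was higher in ixr1-1 DMSO than in Col-0 DMSO. Each stretch is the 300 bases before the gene's start in RefSeq's annotation of TAIR10.1, given 5′ to 3′ on the gene's strand. For each gene shown, that start lies farther upstream than the start of the counted exons. For GRXC9 it is 10014256, against 10014073. The bases between the 2 starts were not searched, and distances are from the RefSeq start. Capitals mark TGACG, the core of sites for TGA factors, and TTGAC, the core of the W box bound by WRKY factors, on either strand, so the reverse complements CGTCA and GTCAA are marked as well. The 2 motifs overlap where TTGACG occurs.
GRXC9 (chr1:10014257-10014556, minus strand): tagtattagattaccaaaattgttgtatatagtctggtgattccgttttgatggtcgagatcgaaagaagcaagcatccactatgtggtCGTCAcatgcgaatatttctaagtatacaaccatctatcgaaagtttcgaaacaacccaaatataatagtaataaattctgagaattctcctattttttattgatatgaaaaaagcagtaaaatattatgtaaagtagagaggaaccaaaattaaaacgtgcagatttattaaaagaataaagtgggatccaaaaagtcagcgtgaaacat
NPR3 (chr5:18228468-18228767, plus strand): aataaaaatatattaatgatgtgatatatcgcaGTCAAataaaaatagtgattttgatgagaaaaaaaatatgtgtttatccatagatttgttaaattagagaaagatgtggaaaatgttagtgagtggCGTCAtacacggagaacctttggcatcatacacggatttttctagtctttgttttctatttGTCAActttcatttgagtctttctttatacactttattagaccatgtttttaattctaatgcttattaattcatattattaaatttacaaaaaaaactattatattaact
NIMIN2 (chr3:9471040-9471339, minus strand): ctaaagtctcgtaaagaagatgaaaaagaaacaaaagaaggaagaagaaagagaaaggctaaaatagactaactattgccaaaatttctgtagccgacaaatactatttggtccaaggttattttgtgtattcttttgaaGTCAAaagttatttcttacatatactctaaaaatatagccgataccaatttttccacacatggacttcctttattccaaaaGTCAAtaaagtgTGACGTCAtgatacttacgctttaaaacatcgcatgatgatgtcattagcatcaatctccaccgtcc
PR2 (chr3:21189968-21190267, minus strand): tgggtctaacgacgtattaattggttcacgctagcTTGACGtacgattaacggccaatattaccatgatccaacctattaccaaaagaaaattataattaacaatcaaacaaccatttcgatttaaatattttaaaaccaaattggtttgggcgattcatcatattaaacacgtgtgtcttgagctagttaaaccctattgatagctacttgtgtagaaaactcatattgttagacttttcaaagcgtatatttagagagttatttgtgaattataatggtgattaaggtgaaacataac

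GRXC9 had 1 match to TGACG, 211 to 207 bases upstream, and 0 to TTGAC. NPR3 had 1 match to TGACG and 2 to TTGAC. NIMIN2 carried TGACGTCA, in which the motif stands on both strands, 67 to 60 bases upstream, and 2 matches to TTGAC besides. PR2 had 1 TTGACG, which counts for both. Of the 9 genes whose upstream stretch was searched, 5 had TGACG and 4 had TTGAC in this window, and NPR1, NIMIN1 and NIMIN3 had neither. Among the 27443 upstream stretches of protein-coding genes of the same length, 21.3% held TGACG, 50.4% held TTGAC and 8.32% held TTGACG. These are matches of letters, and binding was not measured.

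In ixr1-1 the same treatment asks whether the response occurs in seedlings with the resistant cellulose synthase. In edgeR's quasi-likelihood test none of the 9 genes passed, and 0 of all 20379 genes did (0%); 742 genes (3.64%) had an unadjusted p under 0.05, and DESeq2 and limma-voom also called 0. GRXC9 was at 0.634, 0.638 and 0.992 CPM in ixr1-1 isoxaben and at 0.701, 0.955 and 0.876 CPM in ixr1-1 DMSO. None of the 9 genes had groups apart from each other, against 8.19% of all genes. The log2 change of GRXC9 was -0.19 ± 0.40 with an interval of -0.99 to 0.62. NPR3 was at 27.4, 35.6 and 28.1 CPM in ixr1-1 isoxaben and at 28.7, 29.6 and 27.0 CPM in ixr1-1 DMSO. Its second treated library was the highest of the 6, and the change was 0.094 ± 0.13 with an interval of -0.16 to 0.34. Both intervals end below the fold changes measured in Col-0.

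The remaining genes also stayed short of the threshold in ixr1-1, with log2 changes between -0.71 for PR1 and 0.095 for PR5. PR1 had 3 counts over ixr1-1 isoxaben and 5 over ixr1-1 DMSO, a ratio of 0.592 with a 95% counting interval of 0.092 to 3.05. This interval leaves out the spread between replicates. PR2 was at 2.08, 0.779 and 2.51 CPM in ixr1-1 isoxaben and at 1.75, 1.38 and 4.58 CPM in ixr1-1 DMSO. The third DMSO library held the highest PR2 level of all 12, and without it the sign of the change turned (log2 0.24). NIMIN3 averaged 8.82 ± 1.3 CPM in ixr1-1 isoxaben and 10.04 ± 0.43 CPM in ixr1-1 DMSO (SD, n = 3 each; log2 -0.17 ± 0.13).

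**Figure D2:**
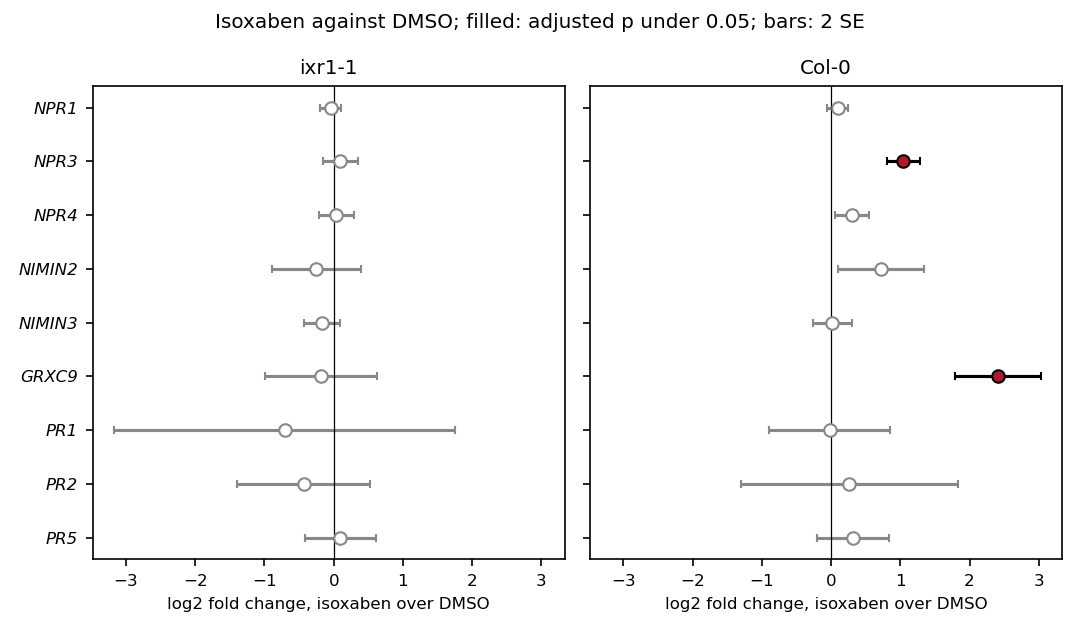
Log2 fold change of isoxaben over DMSO (x axis) for the 9 tested genes in ixr1-1 (left) and in Col-0 (right), with bars of 2 SE; filled points passed an adjusted p of 0.05. GRXC9 (2.41) and NPR3 (1.04) passed in Col-0, and no gene passed in ixr1-1.

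The difference between the 2 treatment effects was tested as an interaction, ixr1-1 minus Col-0. It passed for GRXC9 (-2.59 ± 0.52, adjusted p = 0.036) and for NPR3 (-0.95 ± 0.17, adjusted p = 0.029), that is, the effect was lower in ixr1-1 for both. Over all genes 0.255% were lower and 0.0589% higher by this rule. Both calls were close to the threshold. When each of the 12 libraries was left out in turn, the call of NPR3 ended in 9 fits (adjusted p up to 0.15, without library 2 of ixr1-1 DMSO) and that of GRXC9 in 8 (up to 0.27, without the same library). The values themselves stayed between -1.08 and -0.81 for NPR3 and between -2.98 and -2.35 for GRXC9 in those fits. NIMIN2 had an interaction slightly larger in size than NPR3's, with a wider error, and it did not pass (-0.98 ± 0.45, adjusted p = 0.999).

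The calls of NPR3's interaction ended without any 1 library of ixr1-1 DMSO or Col-0 DMSO, without 1 or 3 of ixr1-1 isoxaben, or without 2 of Col-0 isoxaben (adjusted p = 0.053 to 0.15). Those of GRXC9's ended without library 2 or 3 of ixr1-1 DMSO, 1 or 3 of ixr1-1 isoxaben, 1 or 2 of Col-0 isoxaben, and also without 2 or 3 of Col-0 DMSO (0.053 to 0.27).

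The comparison of ixr1-1 with Col-0 in DMSO asks whether levels differ by genotype without the herbicide. NPR1, NIMIN3 and PR2 were higher in ixr1-1 and PR1 was lower, so 3 of the 9 tested genes rose and 1 fell, against 9.79% and 7.42% of all genes tested. PR1 and PR2 entered the test through the genotype in which they were high, so these counts are a description. In isoxaben NIMIN3 was higher and PR1, NPR3 and GRXC9 were lower in ixr1-1, against 6.92% and 5.85% of all genes. These 2 comparisons share the Col-0 and ixr1-1 samples with the treatment comparisons above. Seed storage and shoot transcripts differed between the genotypes without overlap, as given above, and these levels and genotype cannot be told apart. With the seed storage level as a covariate, an alternative chosen after the data were seen, 0 of the 9 genes passed in either comparison. Of all genes, 2 passed in DMSO and 0 in isoxaben. Because that level nearly follows genotype, this fit cannot estimate a genotype difference apart from it, and the loss of calls decides nothing.

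PR1 showed the largest difference of the 9 genes, but it was tested only because it was high in Col-0. Its p-values are therefore a description. PR1 had 2, 1 and 2 counts (0.234, 0.048 and 0.195 CPM) in ixr1-1 DMSO, against 17, 26 and 8 counts (1.16, 1.83 and 0.419 CPM) in Col-0 DMSO. In isoxaben it had 0, 1 and 2 counts in ixr1-1 and 14, 21 and 10 counts in Col-0. Every ixr1-1 library was below every Col-0 library of the same treatment. The log2 difference in DMSO was -3.01 ± 0.69 (adjusted p = 0.0051), a call that ended without library 2 of ixr1-1 DMSO (-2.30, adjusted p = 0.070). In isoxaben, where the 3 ixr1-1 libraries sum to 3 counts, the ratio of ixr1-1 to Col-0 was 0.0697 with a 95% counting interval of 0.0139 to 0.217 (adjusted p = 0.0043 in the fit). That interval covers counting error only and leaves out the spread between replicates. The fitted difference of -3.70 in isoxaben was -4.47 without library 3 of ixr1-1 isoxaben. With the seed storage covariate the sign turned in both treatments, to 2.20 in DMSO and 1.17 in isoxaben, without a call. As the covariate nearly follows genotype, these 2 values do not measure a genotype difference.

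PR2 went the other way. It entered the test mainly through ixr1-1 libraries, where it was high, so its p-values are a description too. PR2 was at 1.75, 1.38 and 4.58 CPM in ixr1-1 DMSO, against 0.341, 0.492 and 0.472 CPM in Col-0 DMSO, with no overlap. The difference was 2.44 ± 0.60 on the log2 scale (adjusted p = 0.012), and without library 1 of Col-0 DMSO the adjusted p was 0.051. Without library 3 of ixr1-1 DMSO, the highest, the difference was 1.77 (adjusted p = 0.024). In isoxaben PR2 was at 2.08, 0.779 and 2.51 CPM in ixr1-1 and at 0.966, 0.459 and 0.279 CPM in Col-0. There the second ixr1-1 library fell below the first Col-0 one, and the difference did not pass (1.75 ± 0.62, adjusted p = 0.083). It did pass with DESeq2 (adjusted p = 0.026), with the 2 groups fitted alone (0.039) and without library 2 of ixr1-1 isoxaben (0.029) or library 2 or 3 of ixr1-1 DMSO (0.042 and 0.015). PR5 differed by 0.35 ± 0.26 in DMSO and 0.13 ± 0.25 in isoxaben, and passed in neither.

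NIMIN3 was at 9.93, 9.69 and 10.5 CPM in ixr1-1 DMSO, against 6.61, 6.12 and 5.92 CPM in Col-0 DMSO. The groups stood clear of each other, at 1.61-fold (log2 0.69 ± 0.13, adjusted p = 0.0013). In isoxaben it was at 7.43, 9.85 and 9.19 CPM in ixr1-1 and at 5.50, 7.28 and 5.79 CPM in Col-0 (log2 0.50 ± 0.14, adjusted p = 0.021). The call in isoxaben ended without library 1 or 3 of Col-0 isoxaben (adjusted p = 0.067 and 0.087) or library 2 or 3 of ixr1-1 isoxaben (0.103 and 0.070).

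NPR1 was at 29.0, 30.5 and 32.6 CPM in ixr1-1 DMSO, against 26.6, 24.5 and 24.1 CPM in Col-0 DMSO. All 3 ixr1-1 libraries were higher, though by little (1.23-fold, log2 0.30 ± 0.076, adjusted p = 0.010), and without library 3 of Col-0 DMSO the adjusted p was 0.054. In isoxaben the NPR1 groups were again apart, at 28.0, 30.7 and 30.6 CPM in ixr1-1 and 26.4, 27.9 and 25.9 CPM in Col-0, without a call (0.16 ± 0.076, adjusted p = 0.19). Groups that do not overlap made up 33.7% of all genes tested in DMSO and 30.6% in isoxaben, so this separation is common between these genotypes.

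NPR3 and GRXC9 differed by genotype in the treated seedlings. NPR3 was lower in ixr1-1 isoxaben than in Col-0 isoxaben by -0.76 ± 0.12 on the log2 scale (adjusted p = 0.00082), and GRXC9 by -2.21 ± 0.31 (adjusted p = 0.00016). In DMSO their differences were 0.18 ± 0.13 and 0.38 ± 0.40, neither of which passed. NPR4 and NIMIN2 passed in neither comparison, with 0.15 ± 0.13 and 0.53 ± 0.32 in DMSO and -0.11 ± 0.13 and -0.45 ± 0.31 in isoxaben.

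**Figure D3:**
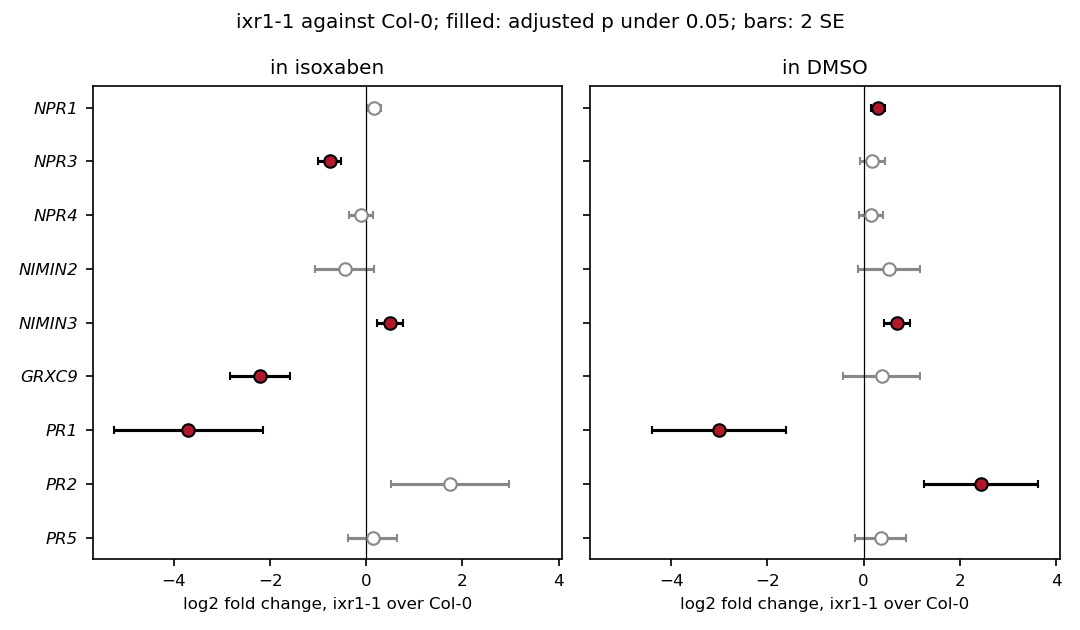
Log2 fold change of ixr1-1 over Col-0 (x axis) for the 9 tested genes in isoxaben (left) and in DMSO (right), with bars of 2 SE; filled points passed an adjusted p of 0.05. PR1 lies far to the left in both panels, at -3.70 in isoxaben and -3.01 in DMSO, and PR2 to the right, at 1.75 and 2.44.

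Per kilobase of the counted exons, the 10 genes ranked as follows in Col-0 DMSO, where TMM-scaled CPM per kb averaged 10.7 ± 0.59 for NPR3, 9.93 ± 0.54 for NPR1, 9.49 ± 0.54 for NIMIN3 and 8.36 ± 1.1 for NPR4 (SD, n = 3). These 4 lay within a narrow band in which neighbours did not differ beyond their spread. NIMIN2 followed at 3.001 ± 0.80, then PR5 at 1.62 ± 0.10, PR1 at 1.49 ± 0.93 and GRXC9 at 1.14 ± 0.49, the last 3 within each other's spread. PR2 at 0.348 ± 0.066 and NIMIN1 at 0.084 ± 0.15 closed the order. In Col-0 isoxaben NPR3 stood at 22.1 ± 4.0 and led clearly, and GRXC9 at 6.02 ± 1.8 stood beside NIMIN2 at 5.27 ± 2.2, within their spread. The PR genes remained low there, at 2.04 ± 0.25 for PR5, 1.43 ± 0.45 for PR1 and 0.455 ± 0.29 for PR2.

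In ixr1-1 DMSO the order began with NIMIN3 at 15.3 ± 0.65 CPM per kb, ahead of NPR1 at 12.2 ± 0.73, NPR3 at 12.06 ± 0.57 and NPR4 at 9.32 ± 1.4. PR2 at 2.06 ± 1.4 and PR5 at 2.08 ± 0.84 were level there, and PR1 at 0.209 ± 0.13 was the lowest after NIMIN1. In ixr1-1 isoxaben NIMIN3 at 13.5 ± 1.9, NPR3 at 12.9 ± 1.9 and NPR1 at 11.8 ± 0.61 were within each other's spread, and GRXC9 at 1.26 ± 0.34 was close to its ixr1-1 DMSO level of 1.41 ± 0.22.

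A further 52 genes around the pathway were grouped into 6 lists, of which 48 were tested. In Col-0, 5 of the 48 rose with isoxaben and 0 fell, against 0.613% and 0.167% of all genes tested. In ixr1-1 0 of them passed, against 0% of all genes, and in the interaction 0, against 0.255% lower and 0.0589% higher. Of the 48, 3 reached the filter in libraries of 1 genotype alone and so could be tested because they were high there, WRKY38 in the 3 libraries of Col-0 isoxaben and PBS3 and AED1 in the 6 of ixr1-1. Their calls are a description, and counts of the other 45, taken after the data were seen, are given beside those of the 48. Of these 45, 4 rose in Col-0 and 0 fell. Of 14 genes of salicylate synthesis and the EDS1 node, 2 rose in Col-0. They were PAD4, a partner of the immune regulator EDS1, at 18.4 ± 0.57 CPM in isoxaben and 11.6 ± 1.8 CPM in DMSO (log2 0.67 ± 0.11, adjusted p = 0.00401), and CBP60g, a transcription factor for salicylate synthesis genes, at 4.34 ± 1.1 CPM in isoxaben and 2.07 ± 0.76 CPM in DMSO (log2 1.08 ± 0.24, adjusted p = 0.038). ICS1, which makes the isochorismate precursor, had a log2 change of -0.16 ± 0.11 and did not pass. The list's median was 0.037, beside -0.0014 over all genes tested. The CBP60g call ended without any 1 of 6 libraries: 1 of ixr1-1 DMSO, 3 of ixr1-1 isoxaben, 1 or 2 of Col-0 isoxaben, 1 or 3 of Col-0 DMSO (adjusted p = 0.052 to 0.29), and with the 2 groups fitted alone (0.083). With the seed storage covariate the call of CBP60g ended (0.054) and that of PAD4 did not.

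Of 8 WRKY factors linked to the salicylate response, 7 were tested and 3 rose in Col-0, against 0.613% of all genes tested. The list median was 1.09, beside -0.0014 over all genes tested. Without WRKY38, 2 of 6 rose, with a median of 0.72. WRKY38 was at 7.34, 2.81 and 0.976 CPM in isoxaben and at 0.205, 0.141 and 0.157 CPM in DMSO. Its treated libraries differ among themselves, and all lie above the untreated ones (log2 4.31 ± 0.81, adjusted p = 0.036), in the group through which it entered the test. Without library 1 of Col-0 isoxaben its change was 3.48. WRKY18 averaged 45.6 ± 1.5 CPM in isoxaben and 35.9 ± 1.3 CPM in DMSO (SD, n = 3 each; log2 0.35 ± 0.077, adjusted p = 0.036). WRKY46, named after its value was seen, changed by 1.09 ± 0.23 (adjusted p = 0.038). These calls were close to the threshold. That of WRKY38 ended without any 1 library of ixr1-1 DMSO or Col-0 DMSO, without 2 or 3 of ixr1-1 isoxaben or 2 of Col-0 isoxaben (adjusted p up to 0.22), with limma-voom (0.25), with no filter (0.063) and with the 2 groups fitted alone (0.345). That of WRKY18 ended without any 1 Col-0 library or without library 3 of ixr1-1 isoxaben (up to 0.19). That of WRKY46 ended without any 1 library of ixr1-1 or of Col-0 isoxaben (up to 0.21) and with the 2 groups fitted alone (0.2). With the seed storage covariate all 3 calls ended (adjusted p = 0.0501 for WRKY18, 0.058 for WRKY46 and 0.069 for WRKY38).

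No gene passed in Col-0 among the 7 TGA factors (median 0.099), the 10 NPR relatives and cofactors (median -0.0084), the 5 tested genes of salicylate turnover (0.030) and the 5 tested members of a list of other salicylate-induced genes (0.053). In ixr1-1 the medians of the 6 lists lay between -0.26 and 0.11. The WRKY median there was -0.13, with 0 of 7 past the threshold. BSMT1, LURP1 and PCC1 had too few counts to be tested. WRKY62 was not tested either, as it reached the cut-off only in 2 libraries of Col-0 isoxaben. It had 64 counts over that group, from 2 to 45 in a library. Over Col-0 DMSO it had 8 counts, over ixr1-1 isoxaben 5 and over ixr1-1 DMSO 14.

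By genotype, 15 of the 48 were higher and 3 lower in ixr1-1 in DMSO, against 9.79% and 7.42% of all genes tested. In isoxaben 12 were higher and 2 lower, against 6.92% and 5.85%. Without WRKY38, PBS3 and AED1 it was 13 higher and 3 lower of 45 in DMSO, and 10 higher and 1 lower in isoxaben. In DMSO 7 of the 14 synthesis and EDS1 node genes were higher (6 of 13 without PBS3), among them CBP60g (log2 1.85 ± 0.23, adjusted p = 1.99e-05) and SAG101, another EDS1 partner (0.59 ± 0.11, adjusted p = 0.00086). The list's median was 0.45, beside -0.0010 over all genes. In isoxaben 5 were higher (4 of 13 without PBS3). PBS3, an enzyme of salicylate synthesis tested because it was high in ixr1-1, was at 1.36 ± 0.43 CPM in ixr1-1 and 0.335 ± 0.22 CPM in Col-0 (2.12 ± 0.49, adjusted p = 0.0077). SAG101 differed by 0.44 ± 0.11 (adjusted p = 0.012). Those 2 calls ended without library 3 of ixr1-1 isoxaben (PBS3, 0.051) and library 3 of Col-0 isoxaben (SAG101, 0.070). The seed storage levels given above move with all of these differences and cannot be told apart from genotype here either. With that level as a covariate, none of the genotype calls of the pathway genes named here and below remained (adjusted p = 1 for each).

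Of the WRKY factors 4 were higher in DMSO, led by WRKY60 at 52.4 ± 5.5 CPM in ixr1-1 and 17.8 ± 0.75 CPM in Col-0 (1.56 ± 0.10, adjusted p = 6.2e-08) and WRKY18 (0.64 ± 0.077, adjusted p = 1.5e-05). In isoxaben 3 were higher, with WRKY60 at 1.15 ± 0.10 (adjusted p = 2.9e-06), and 1 lower, WRKY38, with 4 counts over ixr1-1 and 139 over Col-0 (-5.02 ± 0.94, adjusted p = 0.0059, or 0.084 with the 2 groups fitted alone). WRKY38 was tested only because it was high in Col-0 isoxaben, and its difference was -4.18 without library 1 of that group, -6.17 without library 3 of ixr1-1 isoxaben and 0.028 with the covariate. Of the 5 other salicylate-induced genes 2 were higher in both treatments (1 of 4 without AED1). AED1, an apoplastic protease gene of systemic resistance, was at 1.89 ± 0.64 CPM in ixr1-1 DMSO and 0.227 ± 0.079 CPM in Col-0 DMSO (2.96 ± 0.41, adjusted p = 5.7e-05), and differed by 2.64 ± 0.43 in isoxaben. It too was tested because it was high in ixr1-1, and with the covariate the differences were 1.53 in DMSO and 1.25 in isoxaben. WAK1, a wall-associated kinase, differed by 0.85 ± 0.16 in DMSO (adjusted p = 0.0045) and 0.64 ± 0.16 in isoxaben (adjusted p = 0.028), where the call ended without any 1 library of ixr1-1 isoxaben or without 2 or 3 of Col-0 isoxaben (up to 0.095).

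Among NPR relatives AT4G26120, annotated as an ankyrin repeat and BTB/POZ protein and the closest match of NPR1 by sequence, was higher by 1.10 ± 0.18 in DMSO (adjusted p = 0.00025) and 0.95 ± 0.19 in isoxaben (adjusted p = 0.0025). It averaged 6.33 ± 0.49 CPM in ixr1-1 DMSO and 3.01 ± 0.54 CPM in Col-0 DMSO (SD, n = 3 each). BOP2, a relative with developmental roles, was lower in DMSO (-0.36 ± 0.11, adjusted p = 0.030), a call that ended without any 1 library of Col-0 DMSO or without 2 or 3 of ixr1-1 DMSO (up to 0.15), and with DESeq2 (0.0705). TGA3 was higher in both treatments (0.53 ± 0.12 in DMSO and 0.47 ± 0.12 in isoxaben, adjusted p = 0.0042 and 0.014) and TGA1 lower in DMSO (-0.35 ± 0.090, adjusted p = 0.010). UGT76B1, a glucosyltransferase that inactivates salicylate, was lower in both (-0.55 ± 0.14 in DMSO and -0.56 ± 0.14 in isoxaben, adjusted p = 0.014 and 0.018). The UGT76B1 call in DMSO ended without library 2 or 3 of ixr1-1 DMSO or 1 of Col-0 DMSO (up to 0.067), and that in isoxaben without library 3 of ixr1-1 isoxaben (0.071) and with the 2 groups fitted alone (0.099). That of TGA1 ended without library 2 of ixr1-1 DMSO or 1 of Col-0 DMSO (up to 0.061). That of TGA3 in isoxaben ended without library 2 of ixr1-1 isoxaben or 3 of Col-0 isoxaben (up to 0.080).

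**Figure D4:**
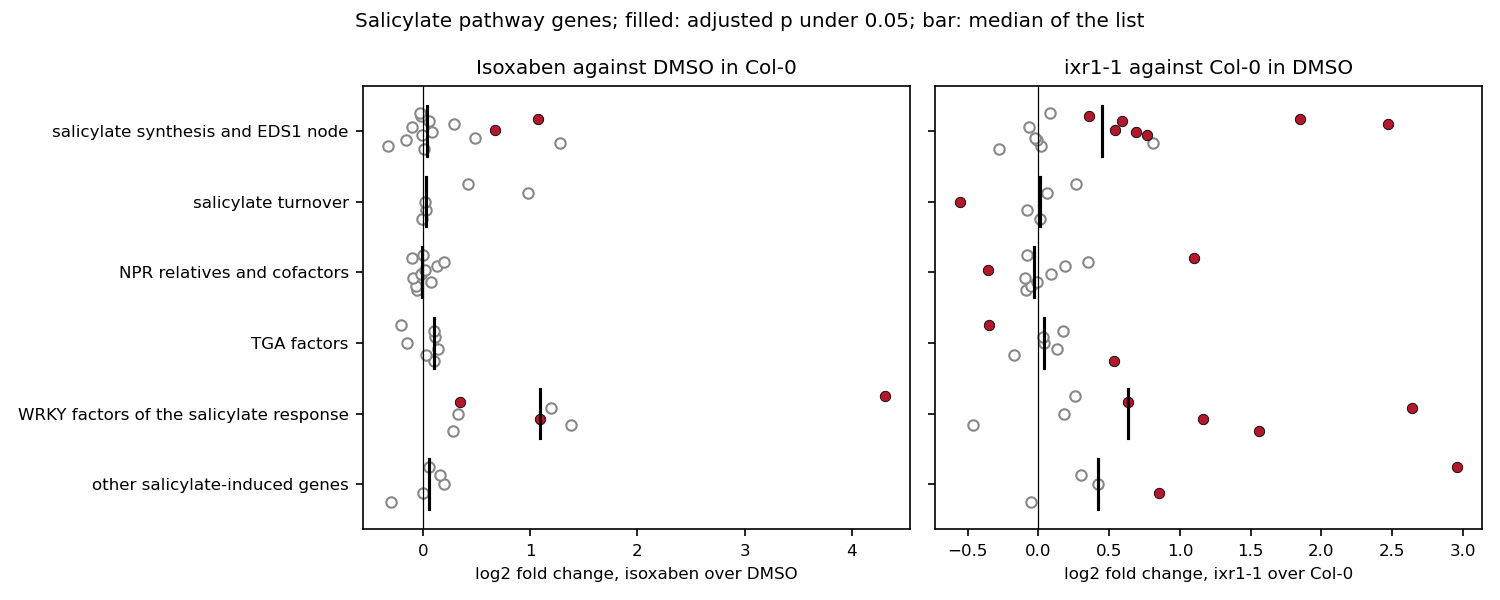
Log2 fold changes (x axis) of the 48 tested pathway genes by list (y axis), for isoxaben over DMSO in Col-0 (left) and ixr1-1 over Col-0 in DMSO (right); filled points passed an adjusted p of 0.05 and bars are list medians. In Col-0 5 genes pass, 3 of them WRKY factors, and by genotype 18 pass, 15 of them above 0.

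The tested genes whose log2 CPM followed that of GRXC9 most closely over the 12 libraries, by Pearson's r, were the metalloproteinase gene MMP (0.96), WRKY38 (0.94), the calmodulin-like CML39 (AT1G76640, 0.94), AT3G50190 (0.92) and WRKY51 (0.92). All of them averaged highest in Col-0 isoxaben, and the likeness rests on these shared groups and libraries. CML39 averaged 4.37 CPM in Col-0 isoxaben and 0.629 CPM in Col-0 DMSO, and WRKY51 3.07 CPM in Col-0 isoxaben and 0.155 CPM in Col-0 DMSO. For PR1 they were MAF4 (0.98), MSL5 (0.96), VAP27-2 (0.95), AT5G53990 (0.95) and Z-ISO (0.94), all lower on average in both ixr1-1 groups than in both Col-0 groups. MSL5, a mechanosensitive channel gene of the MscS type, averaged 48.2 CPM in ixr1-1 isoxaben and 49.1 CPM in ixr1-1 DMSO, against 80.2 CPM in Col-0 isoxaben and 82.02 CPM in Col-0 DMSO. PR1 rests on at most 26 counts in a library, so its r values carry a large counting error.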

How the data were processed

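The 10 genes, the lists and the tests were chosen with earlier results of these data known. Per the file headers, the deposited files hold whole-number counts for 33602 genes with exon positions, as featureCounts writes them, 1 file for each library and not normalized. In the submitters' processing notes bcl2fastq, FastQC (11.1), STAR (2.4.1) and featureCounts (1.4.6) are listed without roles. No source used here names the build, annotation or strand setting. Gene positions are the files' own. On TAIR10.1, 97.7% of 120947 introns implied by the files' exons carried the usual GT-AG ends, and 21.5% of 27998 shared genes had RefSeq's start and end. Upstream sequence was read from TAIR10.1 at RefSeq starts for 9 of the genes; that of the other is not reported here.

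Counts were filtered (filterByExpr, minimum count 10), scaled by TMM and fitted in edgeR 4.0.16 (R 4.3.3) by glmQLFit with robust set, a term per group over 12 libraries and no replicate block. P-values of glmQLFTest were adjusted by Benjamini-Hochberg over 20379 genes in each of 5 comparisons (threshold 0.05). The SE is the size of the log2 fold change over the root of F. The fit was tested on simulated data. Replicates differed beyond sampling noise (chi-square per degree of freedom at least 2.82). None of the 10 genes has a near-identical copy (blastn 2.17.0, 95% identity). Alternatives were DESeq2 1.42.0 and its size factors, limma-voom (limma 3.58.1), 2 other filters, the groups compared alone, replicate blocks, each library left out and, chosen after the data were seen, a seed storage covariate and refits of the named pathway genes. Named were the 10 genes, up to 2 passing genes per list and comparison by adjusted p, and the 5 genes nearest to GRXC9 and PR1 by log2 CPM (prior count 2).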

Additional observations from a re-analysis of the deposited data

Results flagged for a closer look

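The effect of isoxaben on 2 of the genes differed between the genotypes by the test of the difference itself. The log2 effect in ixr1-1 minus that in Col-0 was -2.59 ± 0.52 for GRXC9 (adjusted p = 0.036) and -0.95 ± 0.17 for NPR3 (adjusted p = 0.029). These calls were close to the threshold. With each of the 12 libraries left out in turn, that of GRXC9 ended in 8 fits and that of NPR3 in 9. In ixr1-1 the treated and untreated libraries of both genes overlapped, and in Col-0 all 3 treated libraries were above all 3 untreated ones. Groups of 3 libraries are too small for a test of single outlying libraries.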

How the results depend on the processing

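The 9 tested genes gave 45 log2 values, refitted 898 times; 841 refits kept direction and side of the threshold, 32 lost a call, 6 gained one and 19 changed sign. With a filter of 1 CPM in 6 libraries, which drops GRXC9, PR1 and PR2, the number of genes called was 1 in place of 2 for isoxaben in Col-0, 2 in place of 4 for each genotype comparison and 1 in place of 2 for the interaction. With the seed storage covariate it was 0 in both genotype comparisons and 0 for the interaction (NPR3 -0.95, adjusted p = 0.056; GRXC9 -2.60, 0.0504), and 2 in Col-0. The seed storage level nearly follows genotype, so a genotype difference cannot be estimated apart from it. With the covariate the genotype difference changed sign for PR1 (2.20 in DMSO, 1.17 in isoxaben), NPR1 (-0.097 in isoxaben), NPR4 (0.17 in isoxaben), UGT76B1 (0.00101 in DMSO), BOP2 (0.0029 in DMSO) and WRKY38 (0.028 in isoxaben). PR5 in ixr1-1 was -0.013 with it. With limma-voom PR1 in Col-0 was 0.19.

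With 1 library left out at a time, the interaction count ran from 0 to 2. Effects of isoxaben without a call spanned 0 in such fits. In Col-0 these were NIMIN3 (-0.13 to 0.084), PR1 (-0.47 to 0.51) and PR2 (-0.21 to 0.58), and in ixr1-1 NPR3 (-0.038 to 0.16), NPR4 (-0.035 to 0.15), NIMIN2 (-0.55 to 0.022), PR2 (-0.86 to 0.24) and PR5 (-0.13 to 0.28). Over all genes the count for isoxaben in Col-0 was 159, with 77 without library 3 of Col-0 DMSO, 79 without library 2 of Col-0 isoxaben, 243 with the 2 groups alone and 367 with a block by flask. For the interaction it was 64, with 22 when library 2 of ixr1-1 DMSO was left out, 37 and 29 without library 1 and library 3 of ixr1-1 isoxaben, 113 without library 2 of that group, 36 without library 2 of Col-0 isoxaben, 28 without library 3 of Col-0 DMSO, 103 with DESeq2, 99 with a replicate block by number and 180 by flask. For ixr1-1 against Col-0 in DMSO it was 3509, and 2281 without library 2 of ixr1-1 DMSO. In isoxaben it was 2602, and 1549 to 1712 without library 2 or 3 of either genotype's isoxaben group. The covariate left 2 genes in DMSO and 0 in isoxaben. With only the 2 groups fitted, PR1 was tested for isoxaben in Col-0 and had too few counts in the other comparisons.

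No label ties a replicate number to a flask. Between the treatments, same-numbered libraries deviated together from their group means, if weakly. Their r was 0.03 to 0.205 in Col-0 and 0.0304 to 0.312 in ixr1-1. Between the genotypes r was 0.0462 to 0.152 in DMSO and -0.0491 to 0.117 in isoxaben. Library 3 between the treatments in ixr1-1, and 1 and 2 between the genotypes in isoxaben, correlated better with another number. The rest correlated best with their own. Whether the numbers mark a shared flask was not tested, and the main fit took no account of such a pairing. With a replicate block by number 2 genes were called in Col-0, 0 in ixr1-1, 4 and 5 between the genotypes (PR2 in isoxaben added, adjusted p = 0.016) and 2 in the interaction. With a block by flask the calls were 2 in Col-0, 0 in ixr1-1 and 2 in the interaction. In ixr1-1 the blocks called 1 and 13 genes in all. Few counts limit PR1, PR2 and NIMIN1 at this depth.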
